A study of Mus musculus with 4 samples.

Results

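Toll-like receptors (TLRs) sense microbial and damage-related molecules, and 10 genes of that system were followed here across the cells of mouse liver. The genes were listed by name, with earlier results of these data known: the receptors Tlr2, Tlr4, Tlr7, Tlr9 and Tlr13, the co-receptors Cd14 and Ly96, the adaptors Myd88 and Ticam2, and the kinase-like inhibitor Irak3. All 10 were among the 32285 genes in the deposited tables. Liver cells of male offspring were sequenced with a 10x Genomics 3′ droplet assay, which counts unique molecular identifiers (UMIs, each standing for 1 captured RNA molecule). The mothers were either controls (Ctrl) or hyperglycemic in pregnancy (IHG, intrauterine hyperglycemia), and their offspring were taken as fetuses at stage E18.5 or as adults at 8 weeks, which gave 4 groups of 1 library each. Each library pooled material from 3 pregnant mice or 3 adults, and how the mothers were made hyperglycemic is not given in the sources used here. Adult livers were perfused through the portal vein, and all livers were digested with enzymes, spun at low speed and treated to lyse red cells. The series design asks about inflammatory features of the liver in these offspring.

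TLR2, TLR4 and their co-receptors act at the cell surface, where TLR2 responds to bacterial lipoproteins and TLR4, held with MD-2 (the product of Ly96), responds to lipopolysaccharide handed over by CD14. TLR7, TLR9 and TLR13 sit in endosomes and respond to single-stranded RNA, to unmethylated CpG DNA and to bacterial ribosomal RNA. These receptors signal through MyD88 towards NF-kB, TRAM (the product of Ticam2) links endosomal TLR4 to TRIF, and IRAK-M (the product of Irak3) restrains the MyD88 branch. In the liver, which receives blood from the gut, Kupffer cells, monocytes, neutrophils and sinusoidal endothelial cells are the classic carriers of the lipopolysaccharide receptor.

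Tlr2, Myd88, Irak3 and Tlr13 were among the genes that were lower together in fetal IHG neutrophil-like cells, so bases before their RefSeq start sites are shown. Irak3 has 2 such starts, and the outer one is shown. Windows of 250 bases before the start were searched on both strands for short core motifs of factors with known roles in myeloid cells: GAGGAA for PU.1, GAAANNGAA for interferon-regulated elements, GGGNNTTCC for NF-kB and TTGCNNAA for C/EBP. Promoter sequences from RefSeq (GRCm38.p6, the build also called mm10) matched 5 of the 10 genes. Tlr7, also lower in those cells, was not among them. Tlr9 was, but it had 1 UMI in the neutrophil-like cells of each fetal library, and its sequence is not shown. Capitals mark the matches, and the stretches stop where an annotated exon of GENCODE M21 begins.
Tlr2, chr3:83841768-83841858, minus strand: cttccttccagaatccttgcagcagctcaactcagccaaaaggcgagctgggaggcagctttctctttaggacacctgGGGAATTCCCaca
Myd88, chr9:119340042-119340268, minus strand: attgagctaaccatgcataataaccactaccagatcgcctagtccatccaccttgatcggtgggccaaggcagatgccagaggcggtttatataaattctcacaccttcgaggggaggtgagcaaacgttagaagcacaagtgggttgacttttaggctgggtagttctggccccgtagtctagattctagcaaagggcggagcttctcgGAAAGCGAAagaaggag
Irak3, chr10:120202131-120202380, minus strand: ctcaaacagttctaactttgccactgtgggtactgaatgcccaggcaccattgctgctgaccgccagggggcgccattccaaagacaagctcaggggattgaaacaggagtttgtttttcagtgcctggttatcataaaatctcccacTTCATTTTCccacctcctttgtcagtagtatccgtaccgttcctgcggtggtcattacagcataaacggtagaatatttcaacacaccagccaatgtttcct
Tlr13, chrX:106143025-106143203, plus strand: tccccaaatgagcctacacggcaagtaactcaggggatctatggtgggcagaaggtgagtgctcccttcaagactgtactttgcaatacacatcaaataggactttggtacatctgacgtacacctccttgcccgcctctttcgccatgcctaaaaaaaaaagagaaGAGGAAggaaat
The Tlr2 window held the NF-kB core on both strands in overlapping positions, 172 to 163 bases before the start. The Myd88 window held the interferon-type core 40 to 32 bases before the start, and the Irak3 window shown held the same core on the other strand 102 to 94 bases before the start. The Tlr13 window held the PU.1 core 83 to 78 bases before the start, and the Tlr9 window held it 112 to 107 bases before the start. The second Irak3 window held none of the searched motifs, and no motif was found in all of the genes shown. Across 32851 promoters of the same length, 4.98% held the NF-kB core, 7.13% the interferon-type core, 23.3% the PU.1 core and 9.56% the C/EBP core. A match describes letters and does not show a bound site.

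The fetal Ctrl library held 77874423 UMIs in 8500 barcodes and the fetal IHG library 105382968 in 8739, against 17987173 in 5245 and 19366065 in 6851 barcodes in the adult Ctrl and IHG libraries. Pairs of libraries shared between 8 and 26 barcodes. After filtering, 7594, 7925, 4951 and 6500 cells remained in the same order. Clusters were named from marker genes, and UMIs were summed per library and named class. Levels are UMIs per 1000000 UMIs of the class (CPM), and differences are log2 ratios of IHG over Ctrl. With 1 library per group there was no test and no replicate check. Bracketed intervals are exact 95% Poisson intervals, which cover counting error only and no spread between animals, dissociations or captures. A gene was taken as measured in a class with at least 20 UMIs over both libraries of an age, and as past the fold with a log2 ratio of at least 1 in either direction. A summed level also cannot tell more cells with the RNA from more RNA per cell. No adult cluster met the macrophage markers, so adult Kupffer cells were not described. Of the 9 macrophage markers, Clec4f, Vsig4, Cd5l and Marco had 0 UMIs in sub-clusters 0, 1 and 2 of the adult monocyte-like class, described later, Timd4 had at most 2 UMIs per library and sub-cluster, and C1qa, C1qb, C1qc and Adgre1 were present, at 304, 404, 264 and 88.8 CPM in Ctrl sub-cluster 0. The fetal macrophage-like class held 6 Ctrl and 350 IHG cells and is given for IHG alone.

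In the fetal liver the surface receptor Tlr2 and the co-receptor Cd14 were RNAs of monocyte-like and neutrophil-like cells. Tlr2 stood at 275 CPM in Ctrl and 235 CPM in IHG monocyte-like cells and at 133 and 85.2 CPM in neutrophil-like cells. No other class with at least 20 cells in both libraries exceeded 32.5 CPM. Cd14 followed the same order, with 350.4 and 542 CPM in monocyte-like cells, 233 and 302 CPM in neutrophil-like cells, and 56.9 and 76.2 CPM in myeloid progenitor-like cells. Neutrophil-like cells held 70.0% of all Cd14 UMIs of the fetal Ctrl cells and 63.4% of those of the fetal IHG cells. In the same libraries the erythroid-like class, which should lack these receptors, gave 0.908 and 1.11 CPM for Tlr2 and 1.02 and 2.37 CPM for Cd14.

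Shares of cells showed the same order after each cell was thinned to 1000 UMIs. Thinned, 14.4% of Ctrl and 10.3% of IHG neutrophil-like cells had a Tlr2 UMI, against 0.0969% and 0.0378% of erythroid-like cells. Unthinned, the neutrophil-like shares were 51.6% and 40.0% at a median of 7056 and 7846 UMIs per cell, and the erythroid-like shares were 1.32% and 2.06% at 12994 and 17484 UMIs. For Cd14 the thinned neutrophil-like shares were 21.8% and 27.0%, and 0.129% and 0.151% of erythroid-like cells had a UMI. Unthinned, these were 65.0% and 73.1%, and 1.48% and 4.54%. Tlr2 and Cd14 in the myeloid classes therefore lay far above the level seen in erythroid-like cells.

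The lipopolysaccharide receptor pair did not share one order of classes. Tlr4 was sparse, and its highest fetal Ctrl values lay in endothelial-like (11.3 CPM, 5 UMIs), neutrophil-like (10.7 CPM, 88 UMIs) and monocyte-like cells (7.03 CPM, 12 UMIs), which counting error does not separate. In fetal IHG the order was macrophage-like (29.7 CPM, with 6 Ctrl cells to set beside them), monocyte-like (17.9 CPM), endothelial-like (11.0 CPM) and neutrophil-like (8.19 CPM). Ly96, whose product is the lipopolysaccharide-binding partner of TLR4, was highest, among classes with at least 20 cells in both libraries, in endothelial-like cells, at 42.9 CPM in Ctrl and 59.2 CPM in IHG from 19 and 86 UMIs. The IHG macrophage-like cells had 64.4 CPM of Ly96 from 126 UMIs. Monocyte-like cells followed for Ly96 at 28.7 and 12.7 CPM, whereas neutrophil-like cells had 4.12 and 3.38 CPM. Ly96 was also present in fetal B-like cells, at 8.99 and 7.46 CPM.

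The same RNAs were looked for together in single cells. Of the fetal Ctrl neutrophil-like cells, 78 had a Tlr4 UMI, 60 of these also had Cd14, and 1 had Ly96. In fetal IHG, 137 had Tlr4, 114 of these had Cd14, and 4 had Ly96. Among neutrophil-like cells without a Tlr4 UMI, 3.27% in Ctrl and 2.78% in IHG had Ly96, so Ly96 was rare in neutrophil-like cells with and without Tlr4. Fetal IHG monocyte-like cells held 57 cells with Tlr4, of which 52 had Cd14 and 5 had Ly96. Fetal IHG macrophage-like cells differed in count, with 22 of 46 Tlr4-positive cells also holding Ly96 and 17 holding Tlr4, Cd14 and Ly96 together, although their Tlr4-positive cells were deep, at a median of 9943 UMIs against 1365 for the rest. At this depth an RNA missing from a cell is not shown to be absent.

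The endosomal receptors were more restricted. Tlr13, the sensor of bacterial ribosomal RNA, was found in fetal monocyte-like (27.5 and 25.1 CPM) and neutrophil-like cells (23.7 and 13.3 CPM), and no other named fetal class with 20 cells in both libraries exceeded 4.20 CPM. Tlr7, the sensor of single-stranded RNA, had 12.3 and 6.89 CPM in fetal monocyte-like cells and 9.34 and 3.60 CPM in neutrophil-like cells. The neutrophil-like cells held 62.6% and 27.4% of all Tlr7 UMIs of the fetal Ctrl and IHG cells. Mast/basophil-like cells had 4.60 and 3.87 CPM of Tlr7 from 4 and 17 UMIs. In the fetal IHG macrophage-like cells Tlr7 stood at 53.2 CPM from 104 UMIs, 43.2% of all Tlr7 UMIs of that library. Those cells also had 187 CPM of Cd14 and 59.3 CPM of Tlr2. Tlr13 was present in them too, with 27 of their 1955462 UMIs, 7.14% of all Tlr13 UMIs of that library. Haemoglobin genes summed to 98712 CPM and hepatocyte markers to 1140 CPM in the same cells, and their part was not tested. Tlr9, the CpG DNA sensor, had 17 UMIs among all fetal Ctrl cells and 9 among all fetal IHG cells, too few to describe by class.

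Among the signalling genes, the adaptor Myd88 was the least restricted. Its fetal levels were 51.3 and 29.9 CPM in neutrophil-like, 46.9 and 56.8 CPM in monocyte-like and 33.9 and 44.0 CPM in endothelial-like cells, and it was also found in erythroid-like cells at 3.65 and 6.70 CPM. Irak3, the brake on this branch, was highest in neutrophil-like cells, at 40.2 and 23.8 CPM, and stood at 17.0 and 21.2 CPM in monocyte-like cells. Ticam2, the adaptor of endosomal TLR4, was highest in monocyte-like cells, at 9.96 and 11.3 CPM from 17 and 41 UMIs.

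**Figure D1:**
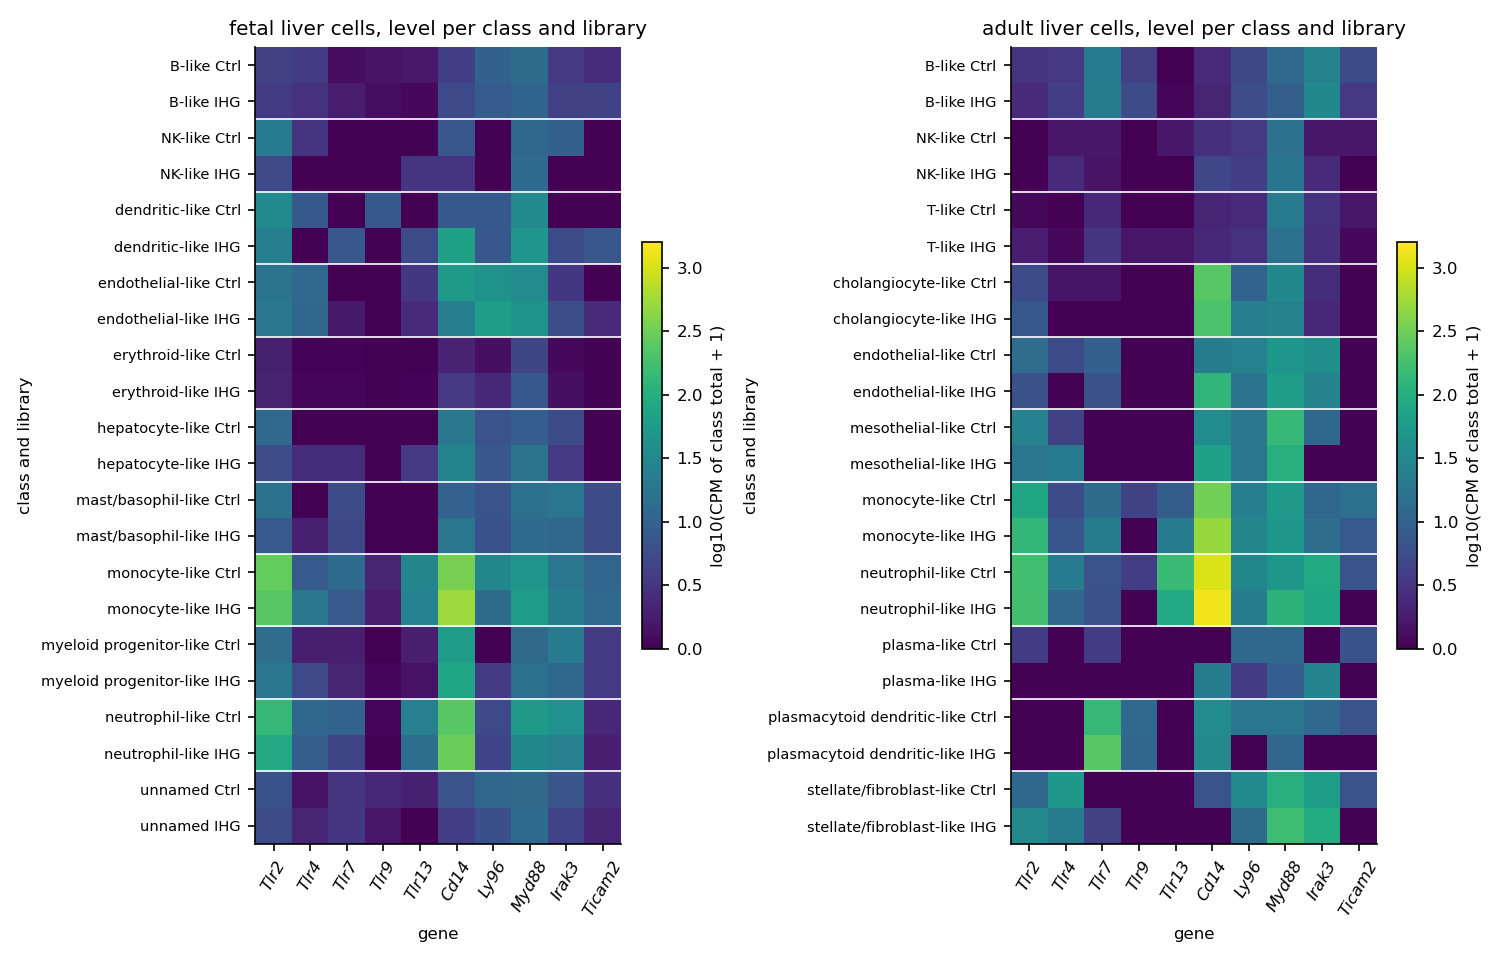
Level of each of the 10 genes (columns) in every class with at least 20 cells in both libraries of an age (rows, Ctrl above IHG), as log10 of CPM + 1, for fetal cells on the left and adult cells on the right. Cd14 and Tlr2 are brightest in neutrophil-like and monocyte-like rows at both ages, and adult cholangiocyte-like rows are bright for Cd14 (235 and 196 CPM).

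In adult liver several of the genes had another order of classes. By class sum, Tlr2 was highest in neutrophil-like cells (171 [131, 220] and 178 [123, 248] CPM from 61 and 34 UMIs), then in the monocyte-like class (74.2 and 132 CPM). That class is a mixed sum with many dendritic-like cells, and its monocyte-like sub-cluster 0 had 205 [161, 256] and 247 [209, 289] CPM of Tlr2. Counting error does not separate these values from those of neutrophil-like cells. Tlr13 was again a gene of neutrophil-like cells, at 152 and 88.8 CPM, with 7.81 and 21.5 CPM in monocyte-like cells and at most 0.594 CPM in any other Ctrl class. Cd14 reached 1073 and 1364 CPM in neutrophil-like cells and 329 and 505 CPM in monocyte-like cells. Adult T-like cells, which should lack the gene, gave 1.12 and 1.31 CPM of Cd14.

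Cd14 also stood out in the adult cholangiocyte-like class, the bile duct cells. They had 235 CPM in Ctrl and 196 CPM in IHG from 443 and 151 UMIs, a log2 ratio of -0.26 [-0.54, 0.01], and 32.1% and 13.2% of all Cd14 UMIs of their libraries. No single cell gave more than 4.97% of the Ctrl or 7.95% of the IHG UMIs. Thinned to 1000 UMIs, 14.7% and 18.2% of these cells had a Cd14 UMI, against 0 and 0.0644% of T-like cells. Unthinned, the shares were 57.5% and 42.1% at a median of 7261 and 6138 UMIs, and 0.387% and 0.305% of T-like cells at 2907 and 2853 UMIs. Summed monocyte markers in the same class were 165 and 168 CPM and summed neutrophil markers 11.2 and 20.8 CPM, while hepatocyte markers summed to 4312 and 4732 CPM, so the class also carried hepatocyte RNA. The part of that RNA in the Cd14 level was not tested.

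Most UMIs of the sensors Tlr7 and Tlr9 in adult liver lay in B-like cells. By level, Tlr7 was highest in plasmacytoid dendritic-like cells, the professional interferon producers, at 136 and 231 CPM from 24 and 22 UMIs. Monocyte-like sub-cluster 0 had 43.1 and 36.2 CPM of Tlr7 from 16 and 22 UMIs. B-like cells had 19.6 and 21.0 CPM and, being numerous, held 59.3% and 69.9% of its UMIs. For Tlr9, B-like cells held 13 of 21 UMIs in Ctrl and 32 of 36 in IHG. Irak3 UMIs lay mostly in B-like cells as well (55.0% and 70.9%), although its CPM was higher in neutrophil-like cells, at 87.1 and 78.4 CPM, than in B-like cells, at 26.2 and 30.2 CPM.

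Stromal classes carried the adaptor Myd88, and stellate/fibroblast-like cells the brake as well. Adult stellate/fibroblast-like cells had 99.4 and 160 CPM of Myd88 and 60.7 and 90.8 CPM of Irak3, and mesothelial-like cells had 137 and 101 CPM of Myd88. Irak3 in mesothelial-like cells had 7 UMIs (11.2 CPM) in Ctrl and 0 in IHG. Tlr4 was highest in stellate/fibroblast-like cells in both adult libraries, at 49.7 and 21.9 CPM, but from 9 and 7 UMIs. The T-like class had 19.6 and 14.0 CPM of Myd88 (105 and 75 UMIs), a log2 ratio of -0.48 [-0.93, -0.04]. This adaptor was thus present at some level in classes with hardly any receptor RNA.

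Across 34 sums of class and library with at least 50 cells, levels of Tlr2 and Cd14 (Pearson r = 0.849), Tlr2 and Tlr13 (0.844) and Tlr13 and Cd14 (0.816) were most alike among the 10 genes, on log2(CPM + 10). These are descriptions over sums that share libraries and depth. By the same measure over 12088 genes, Tlr13 was most like Pira2 (0.974), 1600010M07Rik (0.972) and Cd300lb (0.954), Tlr2 was most like AI839979 (0.903), and Cd14 was most like Aph1c (0.916) and Csf2ra (0.897). Tlr7 was most like Cd86 (0.909), Ly96 most like Marcks (0.894) and Hmox1 (0.880), Ticam2 most like Pld4 (0.890), Myd88 most like Tmem43 (0.879), Tlr4 most like Ifi204 (0.842) and Irak3 most like Sp140 (0.772). Tlr9 had 83 UMIs in all, under the minimum of 200.

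The fetal Ctrl and IHG levels were first compared in neutrophil-like cells, with 995 cells in Ctrl and 2117 in IHG. Nearly the whole set was lower in IHG while Cd14 was higher. Of 9 measured genes, 1 was higher and 8 were lower, with a median log2 ratio of -0.64, whereas the median over all 9704 measured genes in these cells was 0.24. Past the fold, 0 were higher and 1 (Tlr7) was lower, against 4.75% and 3.44% of all measured genes. Of all measured genes, 6905 were higher and 2799 lower. Except for Tlr7, each gene of the set differed by less than the fold.

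Among the receptors, Tlr2 had 1098 UMIs (133 CPM) in Ctrl and 1561 UMIs (85.2 CPM) in IHG, a log2 ratio of -0.64 [-0.76, -0.53]. Tlr13 had 195 UMIs (23.7 CPM) and 244 UMIs (13.3 CPM), a log2 ratio of -0.83 [-1.11, -0.55]. Tlr7 had 77 UMIs (9.34 CPM) and 66 UMIs (3.60 CPM), a log2 ratio of -1.37 [-1.87, -0.88], the one gene of the set past the fold. Surface and endosomal receptors were thus both lower. Tlr4 differed less, at 10.7 and 8.19 CPM with a log2 ratio of -0.39 [-0.77, 0.01].

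The adaptor and the brake were lower to a like extent. Myd88 had 423 UMIs (51.3 CPM) in Ctrl and 548 UMIs (29.9 CPM) in IHG, a log2 ratio of -0.78 [-0.96, -0.59]. Irak3 had 331 UMIs (40.2 CPM) and 436 UMIs (23.8 CPM), a log2 ratio of -0.75 [-0.96, -0.54]. The RNAs of a signal transmitter and of its inhibitor were thus both lower in the IHG library. Ly96 (log2 ratio -0.29) and Ticam2 (-0.63) rested on 96 and 27 UMIs over both libraries, and their intervals included 0.

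Cd14 had the opposite direction, with 1920 UMIs (233 CPM) in Ctrl and 5529 UMIs (302 CPM) in IHG, a log2 ratio of 0.37 [0.30, 0.45]. This is close to the median of all genes, 0.24, and with size factors from the median of gene ratios the Cd14 value was 0.16. Cd14 UMIs in the erythroid-like class were also higher in IHG, at 1.02 and 2.37 CPM, a log2 ratio of 1.21, far below the neutrophil-like levels of 233 and 302 CPM. The part of free RNA in the neutrophil-like values was not tested.

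**Figure D2:**
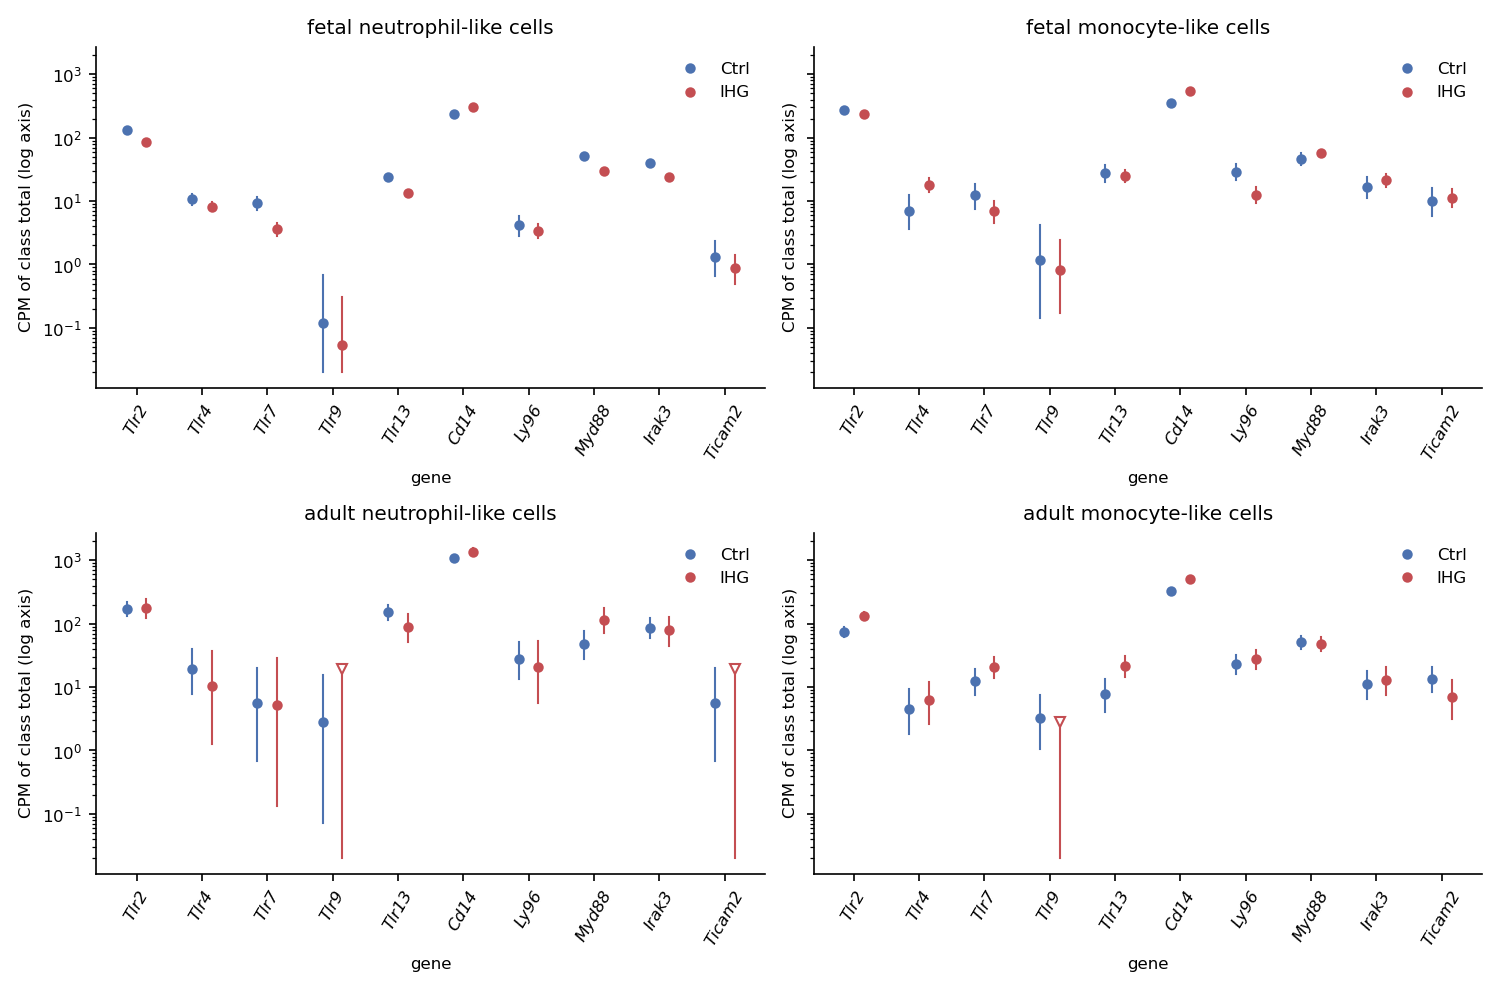
CPM of each of the 10 genes on a log axis in fetal and adult neutrophil-like and monocyte-like cells, Ctrl in blue and IHG in red, with exact 95% Poisson intervals as bars and an open triangle at the upper bound where no UMI was seen; bars stop at 0.02 CPM. In fetal neutrophil-like cells Tlr2, Tlr7, Tlr13, Myd88 and Irak3 sit lower in IHG and Cd14 sits higher (233 and 302 CPM).

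The neutrophil-like class had 3 clusters with different leading genes, and the libraries filled them unequally. Cluster 3, led by Orm1, Chil3, Camp, Fcnb and Ngp (granule genes of immature neutrophils among them), held 266 of 995 Ctrl and 827 of 2117 IHG cells. Cluster 4, led by Retnlg, Cxcl2 and Il1f9, held 394 and 693, and cluster 5, led by Ltf, Ly6g and Ifitm6 among others, held 335 and 597. The genes followed these clusters strongly: Tlr2 was at 29.0 CPM in Ctrl cells of cluster 3, 332 CPM in cluster 4 and 99.4 CPM in cluster 5. The difference was therefore taken within each cluster too.

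Within clusters Tlr2, Tlr7, Tlr13, Myd88 and Irak3 stayed lower in IHG in all 3 and Cd14 stayed higher in all 3. Tlr2 in IHG was at 19.5, 253 and 82.2 CPM in clusters 3, 4 and 5, giving log2 ratios of -0.57, -0.39 and -0.28, smaller than the class value in each. Tlr7 gave -1.27, -1.04 and -1.73, and Tlr13 gave -0.95, -0.55 and -0.42. Myd88 gave -0.55, -0.67 and -0.74, close to the class value of -0.78 in clusters 4 and 5. Irak3 gave -0.40 in cluster 3, -0.77 in cluster 4 and -1.12 in cluster 5. The intervals of Tlr13 in clusters 3 and 5 included 0, and those of the other 4 genes did not in any cluster. The median over measured genes of the set was -0.55, -0.47 and -0.50. No median or share past the fold over all genes was taken within clusters, so the general shift there is not known.

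Cd14 differed most in cluster 3, where it stood at 73.9 CPM in Ctrl (250 UMIs) and 172 CPM in IHG (1706 UMIs), a log2 ratio of 1.22 [1.03, 1.42]. In cluster 4 it stood at 486 and 610.5 CPM (0.33 [0.23, 0.43]) and in cluster 5 at 224 and 316 CPM (0.50 [0.36, 0.64]). The class value of 0.37 thus lies under the values of clusters 3 and 5, and cluster 3, with the lowest Cd14, held a larger part of the IHG cells.

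**Figure D3:**
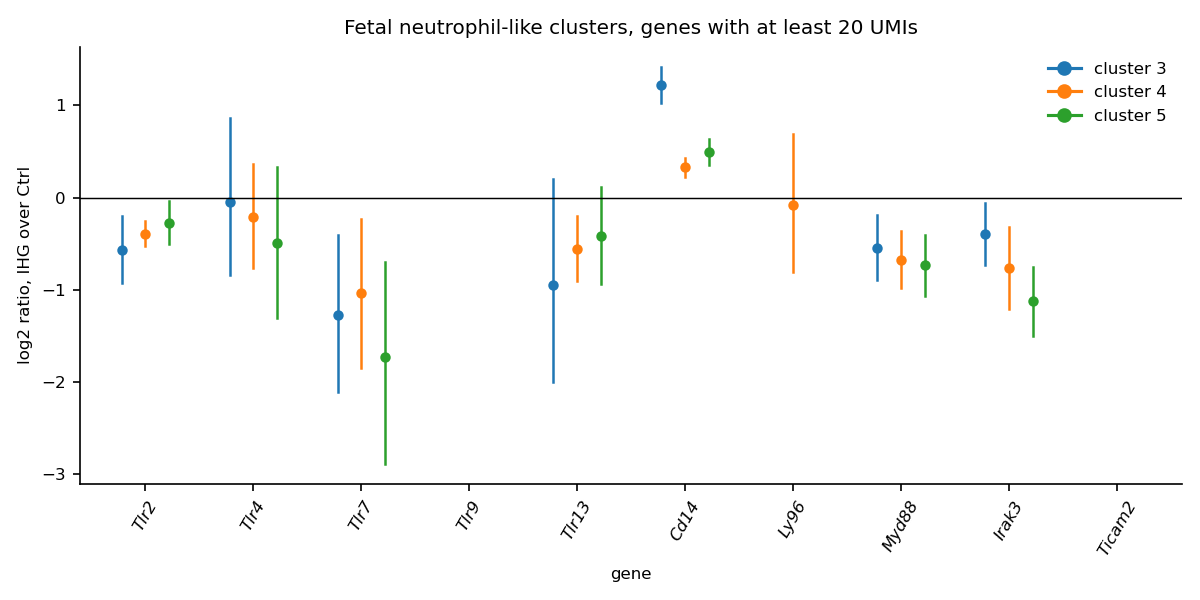
Log2 ratio of IHG over Ctrl (points) with exact 95% Poisson intervals (bars) for measured genes in the 3 fetal neutrophil-like clusters; Tlr9 and Ticam2 were not measured. Tlr2, Tlr7, Tlr13, Myd88 and Irak3 lie below 0 in each cluster and Cd14 above 0, highest in cluster 3 (1.22).

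Other genes of the pathway, taken from a list of 48 names of which 47 were in the table, were split in direction in these cells. Of 38 measured, 20 were higher and 18 lower, with a median of 0.01, below the 0.24 of all genes. Past the fold, 2 were higher and 2 lower, against 4.75% and 3.44% of all measured genes. On the higher side were Sigirr, an inhibitory receptor (1 and 23 UMIs, 2.82 with an interval of [0.75, 8.74]), and Irf3, a transcription factor of the TRIF branch (25 and 117 UMIs, 1.05). On the lower side were Tnfaip3, the NF-kB feedback inhibitor A20 (311 UMIs at 37.7 CPM and 249 UMIs at 13.6 CPM, -1.47 [-1.72, -1.23]), and Cd36, a co-receptor of TLR2 (22 and 23 UMIs, -1.09). All 4 measured genes of the listed further adaptors were lower, with a median of -0.48, but 0 were past the fold and only 1 interval lay below 0. Of 6 measured genes for ligand transfer, co-receptors and receptor trafficking, 5 were higher, with a median of 0.38, beside 6905 of 9704 for all genes.

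Markers of other cells also differed in the neutrophil-like sums. Haemoglobin genes summed to 30559 CPM in Ctrl and 10022 CPM in IHG, macrophage markers to 1.33 and 31.7 CPM, and neutrophil markers to 367313 and 344448 CPM. Without cells above 10% haemoglobin UMIs the median of the 9 genes was -0.70, beside -0.64 with them. The median over all genes was not taken without those cells. The part of RNA from other cells in these values was not tested.

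Fetal monocyte-like cells, with 211 cells in Ctrl and 317 in IHG, did not show that shared lower level. Of 9 measured genes, 5 were higher and 4 lower with a median log2 ratio of 0.16, close to the 0.22 of all 8741 measured genes. Tlr4 was higher and Ly96 lower past the fold, against 5.96% and 3.02% of all genes. Scaled by the median of gene ratios, 4 were higher and 5 lower.

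The parts of the lipopolysaccharide receptor diverged in these cells. Tlr4 had 12 UMIs (7.03 CPM) in Ctrl and 65 UMIs (17.9 CPM) in IHG, a log2 ratio of 1.30 [0.45, 2.37]. Cd14 had 598 UMIs (350.4 CPM) and 1967 UMIs (542 CPM), a log2 ratio of 0.63 [0.50, 0.76]. Ly96 had 49 UMIs (28.7 CPM) and 46 UMIs (12.7 CPM), a log2 ratio of -1.18 [-1.79, -0.57]. The receptor and its lipopolysaccharide donor were thus higher and the binding partner lower in the IHG library. Tlr2 was at 275 and 235 CPM, a log2 ratio of -0.23 [-0.39, -0.06], and intervals of Tlr7 (-0.84), Tlr13 (-0.14), Myd88 (0.27), Irak3 (0.31) and Ticam2 (0.16) included 0.

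Of the pathway list 36 genes were measured in fetal monocyte-like cells, 23 higher and 13 lower with a median of 0.15. Past the fold, 1 was higher and 2 were lower, against 5.96% and 3.02% of all measured genes. The kinase gene Ikbke (7.03 and 15.2 CPM, 1.06) was the higher one, and the ubiquitin ligase genes Peli1 (99.0 and 46.9 CPM, -1.08) and Traf3 (11.1 and 5.51 CPM, -1.02) were lower. Beside these values, haemoglobin genes summed to 76568 CPM in Ctrl and 11092 CPM in IHG monocyte-like cells, and macrophage markers to 36.3 and 114 CPM. Without cells above 10% haemoglobin UMIs, Tlr4 was at 1.07, Ly96 at -1.42 and Cd14 at 0.45, while the median of the 9 genes turned to -0.11.

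Elsewhere in the fetal liver, Cd14 in myeloid progenitor-like cells was at 56.9 and 76.2 CPM (0.41 [0.05, 0.81]) and Irak3 at 19.5 and 10.8 CPM (-0.87 [-1.54, -0.11]). The other measured genes had intervals that included 0 in that class. Of these, Tlr2 (12.7 and 18.1 CPM, 0.46), Myd88 (11.9 and 13.6 CPM, 0.15) and Tlr4 (1 and 28 UMIs, 1.69) had higher values in IHG, unlike in neutrophil-like cells, and Ticam2 a lower one (-0.23). Ly96 in endothelial-like cells was at 42.9 and 59.2 CPM, with an interval that included 0. In erythroid-like cells Ly96 had 16 UMIs in Ctrl and 67 in IHG, out of 45146532 and 51463406 class UMIs. Myd88 had 165 and 345 UMIs there, and both genes were higher in IHG. Over all kept cells, Cd14 was at 36.9 CPM in Ctrl and 87.9 CPM in IHG, and Tlr2 at 23.2 and 28.3 CPM. Myd88 (12.3 and 15.7 CPM) and Irak3 (6.29 and 7.13 CPM) were also higher in IHG over all cells, unlike in neutrophil-like cells. Of the set, only Tlr9 had a lower value in IHG over all cells. The makeup of the libraries differed beside these sums, and neutrophil-like cells were 13.1% of Ctrl and 26.7% of IHG cells.

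Adult neutrophil-like cells were fewer, 188 in Ctrl and 107 in IHG, at a median of 1707 and 1734 UMIs per cell. Of the 10 genes, 5 were measured, 3 higher and 2 lower in IHG, with a median of 0.06 against -0.06 over 2580 genes. Past the fold, Myd88 was higher and no gene was lower, against 1.94% and 6.51% of all measured genes. Myd88 had 17 UMIs (47.8 CPM) in Ctrl and 22 UMIs (115 CPM) in IHG, a log2 ratio of 1.26 [0.29, 2.27]. Cd14 had 382 UMIs (1073 CPM) and 261 UMIs (1364 CPM), a log2 ratio of 0.35 [0.11, 0.58].

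As in the fetus, Cd14 was higher in the adult IHG neutrophil-like sum, whereas Tlr2 did not differ beyond counting error (171 and 178 CPM, 0.06 [-0.60, 0.68]). The share of these cells with a Cd14 UMI was 61.2% in Ctrl and 57.0% in IHG unthinned, and 45.9% and 53.6% thinned. Tlr13 was at 152 and 88.8 CPM (-0.74 [-1.65, 0.04]) and Irak3 at 87.1 and 78.4 CPM (-0.13 [-1.15, 0.78]). Of the pathway list 17 genes were measured, 7 higher and 10 lower, none past the fold, with a median of -0.16. Neutrophil markers summed to 143993 and 146673 CPM in these cells. Over all kept adult cells, unlike in the fetus, Cd14 was lower in IHG, at 82.8 and 63.2 CPM (-0.39 [-0.50, -0.28]). Neutrophil-like cells were 3.80% of adult Ctrl and 1.65% of adult IHG cells.

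In the adult monocyte-like class, with 285 Ctrl and 261 IHG cells, 8 genes were measured, 6 higher and 2 lower in IHG, with a median of 0.45 against 0.07 over 6804 genes. Tlr13 was higher past the fold and no gene lower, against 3.0% and 2.54% of all genes. Tlr2 had 114 UMIs (74.2 CPM) in Ctrl and 171 UMIs (132 CPM) in IHG, a log2 ratio of 0.82 [0.48, 1.18]. Cd14 had 505 UMIs (329 CPM) and 657 UMIs (505 CPM), a log2 ratio of 0.62 [0.45, 0.79]. Tlr13 had 12 UMIs (7.81 CPM) and 28 UMIs (21.5 CPM), a log2 ratio of 1.43 [0.44, 2.57].

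The class values of Tlr2 and Cd14 did not carry over to the monocyte-like cells within the class. Tlr13 was too sparse there to tell. Clustered again by itself, the class gave a monocyte-like sub-cluster 0 (84 Ctrl and 129 IHG cells) and dendritic-like sub-clusters 1 (86 and 68) and 2 (70 and 38), so monocyte-like cells made up a larger part of the IHG class. Sub-cluster 0 held most of the RNA: Tlr2 at 205 and 247 CPM there, against 27.9 and 30.3 CPM in sub-cluster 1 and 21.4 and 18.4 CPM in sub-cluster 2. Within sub-cluster 0 the log2 ratio was 0.26 [-0.14, 0.69] for Tlr2 and 0.09 [-0.11, 0.30] for Cd14 (832 and 886 CPM). For Tlr13 it was 0.77 [-0.32, 2.10] from 9 and 26 UMIs, an interval that holds both 0 and the class value of 1.43. The median over the 7 measured genes of sub-cluster 0 was -0.19, with 3 higher and 4 lower. In the dendritic-like sub-cluster 2, Cd14 was at 138 CPM in Ctrl (58 UMIs) and 244 CPM in IHG (53 UMIs), a log2 ratio of 0.82 [0.25, 1.38]. Cd14 had the opposite direction in the small sub-cluster 3, which carried B cell markers (26 and 12 cells), at 466 and 152 CPM from 75 and 9 UMIs, a log2 ratio of -1.54 [-2.79, -0.61]. In the unnamed sub-clusters 4 (13 and 9 cells) and 5 (6 and 5 cells) Cd14 had 1 and 12, and 2 and 0 UMIs.

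Sub-cluster 0 differed in other genes as well. The macrophage genes C1qa (304 and 27.9 CPM) and C1qb (404 and 26.3 CPM), which encode complement components, were lower in IHG, and Adgre1 (F4/80) was at 88.8 and 47.7 CPM, while the monocyte gene F13a1 was at 229 and 350.1 CPM. Clustering each library by itself gave 88 Ctrl monocyte-like cells beside 194 dendritic-like ones, but 265 IHG monocyte-like cells in 1 cluster, and the median of the set was then -0.78. Monocyte and dendritic cell makeup cannot be told apart from a difference in RNA per cell in the class sum.

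**Figure D4:**
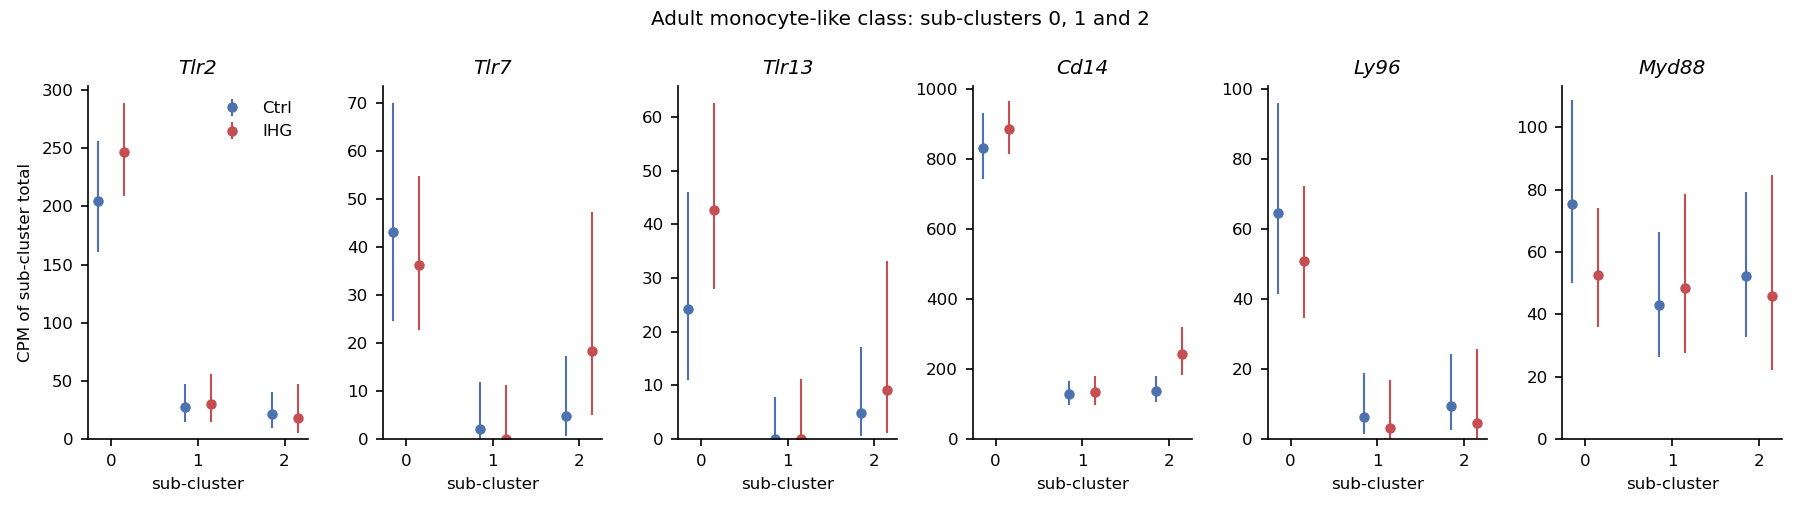
CPM of 6 genes in sub-clusters 0 (monocyte-like), 1 and 2 (dendritic-like) of the adult monocyte-like class, Ctrl in blue and IHG in red, with exact 95% Poisson intervals. Tlr2 and Cd14 are several times higher in sub-cluster 0, and there the Ctrl and IHG intervals overlap for all 6 genes.

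Of the pathway list 33 genes were measured in the adult monocyte-like class, 18 higher and 15 lower, with a median of 0.00. Past the fold, 1 was higher (Ikbke, 6 and 14 UMIs, 1.40 [-0.01, 3.13]) and 0 were lower, against 3.0% and 2.54% of all measured genes. Adult B-like cells, with 1850 Ctrl and 3440 IHG cells, gave 7 measured genes of the set, 5 higher and 2 lower with a median of 0.20, against -0.10 over 9629 genes. No gene was past the fold, against 0.758% higher and 1.37% lower among all genes. Tlr7 was at 19.6 and 21.0 CPM (83 and 151 UMIs, 0.10 [-0.29, 0.51]), Tlr9 at 3.07 and 4.46 CPM (13 and 32 UMIs, 0.51 [-0.43, 1.59]) and Irak3 at 26.2 and 30.2 CPM (111 and 217 UMIs, 0.20 [-0.13, 0.55]). All 7 intervals included 0, so no difference in these sensors was detectable at this depth. Of the pathway list 36 were measured, 8 higher and 28 lower, with a median of -0.10 equal to that of all genes.

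Among the smaller adult classes, Ly96 in cholangiocyte-like cells was at 9.56 and 23.4 CPM from 18 UMIs each (1.29 [0.27, 2.32]). Cd14 in endothelial-like cells was at 21.3 and 128 CPM from 5 and 25 UMIs, of which 1 cell gave 48.0% in IHG. Tlr7 in plasmacytoid dendritic-like cells was at 136 and 231 CPM, with a log2 ratio of 0.77 [-0.14, 1.66]. Myd88 in mesothelial-like (-0.42) and stellate/fibroblast-like cells (0.66) had intervals that included 0. Differences in these classes rested on few molecules and are given as values.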

How the data were processed

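The deposited matrices hold UMI counts, made with Cell Ranger 5.0.0 per the file headers. Seurat and the build mm10 are named, without a step, in the submitters' processing notes. Barcodes under 300 genes or above 25% mitochondrial UMIs were dropped. Doublets were removed with Scrublet at its own threshold in fetal libraries (107 and 267) and above the 95th score percentile in adult ones (244 and 286), where that threshold marked 0 and 0.0147%. Both libraries of each age were clustered jointly (scanpy 1.11.5, leidenalg 0.10.2, 2000 variable genes without the 10 genes and the pathway list, 30 components, 15 neighbours, resolution 1.0) and named from marker lists of 19 classes. Log2 ratios had 0.5 added to each count. Intervals are exact at 95%. Interval code was tested on simulated counts. Levels of all 10 genes were computed and plotted in every class with at least 20 cells per library. The text names only some of these classes and genes. Differences in classes or genes left unnamed are not shown to be absent. Named pathway genes were up to 4 per class past the fold, and named similar genes were the nearest by Pearson r. The genes, lists and tests were chosen with earlier results of these data known, and sub-clusters were added after the values were seen. Gene positions and exons are from GENCODE M21.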

Additional observations from a re-analysis of the deposited data

Results flagged for a closer look

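For 3 genes the log2 ratio of IHG over Ctrl had opposite directions at the 2 ages in a class of the same name, with both counting intervals away from 0. The difference between ages was not tested, since each age and group had 1 library. Myd88 in neutrophil-like cells was at -0.78 in the fetus and 1.26 in the adult, a difference of 2.04, the adult value from 17 and 22 UMIs. Tlr2 in monocyte-like cells was at -0.23 and 0.82, a difference of 1.05, and the adult class mixed monocyte-like with dendritic-like cells. In the monocyte-like sub-cluster 0 of that class Tlr2 was at 0.26 [-0.14, 0.69], an interval that included 0. Cd14 in endothelial-like cells was at -1.20 and 2.48, a difference of 3.69, with 1 cell giving 73.9% of the 23 UMIs of fetal Ctrl and 1 cell giving 48.0% of the 25 UMIs of adult IHG.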

How the results depend on the processing

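In fetal neutrophil-like cells the median of the genes stayed below 0 under every alternative run, from -0.86 with size factors from the median of gene ratios to -0.54 with a mitochondrial maximum of 50%, and within clusters 4 and 5, an alternative added after the data were seen, it was -0.47 and -0.50. In fetal monocyte-like cells it turned to -0.029 with those size factors and to -0.11 without haemoglobin-rich cells, and was 0.69 with cells thinned to 1000 UMIs (3 genes left). In adult neutrophil-like cells it turned to -0.23 when genes with 1 UMI were let in. In adult monocyte-like cells it turned to -0.054 with a mitochondrial maximum of 50%, where 128 Ctrl and 175 IHG cells were left in the class, to -0.78 with each library clustered by itself, where Tlr13 was at -0.0074, and to -0.19 in the monocyte-like sub-cluster. In adult B-like cells it turned to -0.34 after thinning (4 genes left). The causes were not tested beyond the cell and gene numbers given. Of 389 recomputed single-gene ratios, 358 lay within the main interval and 18 had another sign than the main value. All 76 unthinned shares of cells were above the thinned ones. No adult macrophage-like class was found under joint clustering, so that planned median has no value. No paired analysis was possible because each group has 1 library. Depth limits Tlr9, Tlr4 and Ticam2 most.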
